A study of Homo sapiens with 2 samples.

Results

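The genes of the YAP/TAZ-TEAD complex and a set of its widely used target genes were compared between 2 libraries of HCT116, a long-established human line from a colorectal cancer. Members were the 10 gene symbols YAP1, WWTR1 (the gene of the protein TAZ), TEAD1, TEAD2, TEAD3, TEAD4, AMOTL2, CCN1 (older name CYR61), CCN2 (CTGF) and ANKRD1, all of which were found, on 1 row each, among the 28615 gene symbols of the deposited table. The first library is labelled as a knockdown of SRD5A1 and carries the tag "Dox", and the second is labelled as a control and carries the tag "KD". The labels explain neither tag and give no agent, dose or time, so whether the control cells also carry a knockdown construct is not given in the sources used here. There was 1 library per group, so the spread between cultures is unknown, no p-value is given, and each difference is a description of this pair of libraries.

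YAP and TAZ are transcriptional coactivators that have no DNA-binding domain of their own and reach DNA through the TEAD transcription factors. The Hippo kinases MST and LATS phosphorylate YAP and TAZ, which are then held in the cytoplasm by 14-3-3 proteins or degraded. In the intestinal epithelium YAP is known for its part in regeneration after injury and in colorectal tumours, and the transcripts of CCN1, CCN2, AMOTL2 and ANKRD1 are commonly used as readouts of YAP/TAZ-TEAD activity.

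TEAD proteins bind the DNA word GGAATG, which reads CATTCC on the other strand. RefSeq windows of 300 bases, from 250 bases before to 50 bases after an annotated start, were at hand for 7 of the 10 genes (10 windows, since a gene can have several starts). The word was present in a window of CCN2, ANKRD1, AMOTL2 and YAP1, and in no window of WWTR1, TEAD2 or TEAD3. These 4 windows are shown because 3 of them belong to the target genes, and because the CCN2 window holds the word 3 times. They read 5′ to 3′ along the gene, with each match to the TEAD word in capitals.
CCN2, GRCh38.p14 chr6:131951323-131951622, minus strand: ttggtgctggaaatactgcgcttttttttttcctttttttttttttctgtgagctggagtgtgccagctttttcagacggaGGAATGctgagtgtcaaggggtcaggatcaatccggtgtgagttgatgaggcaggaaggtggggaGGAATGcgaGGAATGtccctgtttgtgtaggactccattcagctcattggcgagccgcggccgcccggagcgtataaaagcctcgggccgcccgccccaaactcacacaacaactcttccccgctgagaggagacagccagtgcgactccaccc
ANKRD1, GRCh38.p14 chr10:90921038-90921337, minus strand: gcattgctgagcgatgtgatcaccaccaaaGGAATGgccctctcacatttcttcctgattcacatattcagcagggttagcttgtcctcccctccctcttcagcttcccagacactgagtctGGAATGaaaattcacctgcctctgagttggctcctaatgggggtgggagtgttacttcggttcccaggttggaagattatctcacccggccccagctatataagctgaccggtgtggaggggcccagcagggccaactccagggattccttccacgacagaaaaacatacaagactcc
AMOTL2, GRCh38.p14 chr3:134374398-134374697, minus strand: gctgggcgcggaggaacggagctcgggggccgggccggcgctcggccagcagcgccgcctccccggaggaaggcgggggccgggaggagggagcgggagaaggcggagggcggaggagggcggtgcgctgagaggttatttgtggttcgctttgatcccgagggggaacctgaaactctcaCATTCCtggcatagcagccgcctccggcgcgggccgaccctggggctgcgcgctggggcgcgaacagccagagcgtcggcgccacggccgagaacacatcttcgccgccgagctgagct
YAP1, GRCh38.p14 chr11:102110197-102110496, plus strand: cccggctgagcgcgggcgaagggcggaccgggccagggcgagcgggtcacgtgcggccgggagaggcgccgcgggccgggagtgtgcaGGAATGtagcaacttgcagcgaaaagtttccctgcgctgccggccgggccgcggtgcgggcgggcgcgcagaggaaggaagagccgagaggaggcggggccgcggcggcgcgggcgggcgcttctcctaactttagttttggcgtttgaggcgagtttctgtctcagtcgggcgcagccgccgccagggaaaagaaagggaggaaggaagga
In the CCN2 window the matches began 169, 104 and 95 bases before the start, and the nearest pair did not overlap. In the ANKRD1 window they began 220 and 128 bases before the start. AMOTL2 had 1 match, 69 bases before the start, in 1 of its windows, and YAP1 had 1, 162 bases before the start. Of all 35116 windows in the table, 14.03% held the word at least once, 1.37% at least 2 times and 0.128% at least 3 times. The word TGANTCA, with any base allowed at N, was used for AP-1 and searched on both strands. Among these genes it was found in the ANKRD1 window, as TGATTCA 195 bases before the start, and in 7.71% of all windows. The CArG box, the site of the factor SRF, was in no window of these genes and in 1.29% of all windows. A match of letters is not evidence of a bound site.

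The libraries held 54740670 counts (knockdown) and 41814981 counts (control), of which mitochondrially encoded genes took 12.8% in the knockdown and 18.3% in the control. SRD5A1 itself was at 6.25 FPKM in the knockdown library and 10.8 FPKM in the control library, a ratio of CPM (counts scaled to a library of 1000000) of 0.581 (95% interval 0.554 to 0.609). All 7 epithelial markers of a short list (such as EPCAM and KRT8) were expressed. Of 7 intestinal markers, 5 were in the table. Among those, CDX2 alone was above 1 FPKM on average (7.00 FPKM in the knockdown library and 0.767 FPKM in the control library). LGALS4 and CDH17 were at 0 in both. Levels are given as FPKM, fragments per kilobase of exon, scaled to the depth of the library. Genes averaging at least 1 FPKM over the 2 libraries were called expressed. The measure of change was the knockdown level minus the control level in log2(FPKM + 1), here called the difference, and genes with a difference of 1 or more in size were called 2-fold apart. CPM ratios carry exact Clopper-Pearson intervals and FPKM levels exact Poisson intervals, all of which cover counting error only. Over the 10143 expressed genes the median difference was 0.30, so the differences of the 9 genes with counts in both libraries are also given relative to that median. Differences of all other genes are as measured.

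Of the 10 genes, 8 were expressed, and TEAD1 and ANKRD1 were not. In the knockdown library YAP1 and TEAD2 passed the 2-fold threshold upwards and CCN2 passed it downwards. Thus 3 of 8 were 2-fold apart, against 27.7% of all expressed genes (20.9% higher and 6.83% lower). That split moved with the scaling, since 75.3% of all genes 2-fold apart were higher as deposited, 61.1% with TMM, 53.1% with the median ratio set to 1 and 51.6% with the upper quartile. The other 5 expressed genes were short of that threshold. With so few genes the share does not set them apart from the rest of the transcriptome. Coactivator and TEAD genes went both ways. One coactivator and 2 TEAD genes were higher in the knockdown library, while the other coactivator, the remaining TEAD genes and the 4 targets were lower. Of the 8 expressed genes 5 had a difference below 0, against 35.7% of all expressed genes as deposited. The direction of each of the 10 genes held under all 8 alternative settings of scaling, pseudocount, length and row choice. Most of these settings could not turn it. A pseudocount keeps the sign, each gene has a single row, and CPM ratios were close to FPKM ratios. TMM, the median ratio and the upper quartile shift every difference downwards, and CPM without mitochondrial genes does so relative to CPM. Genes already lower in the knockdown library could therefore turn only with the GC and length trend removed.

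**Figure D1:**
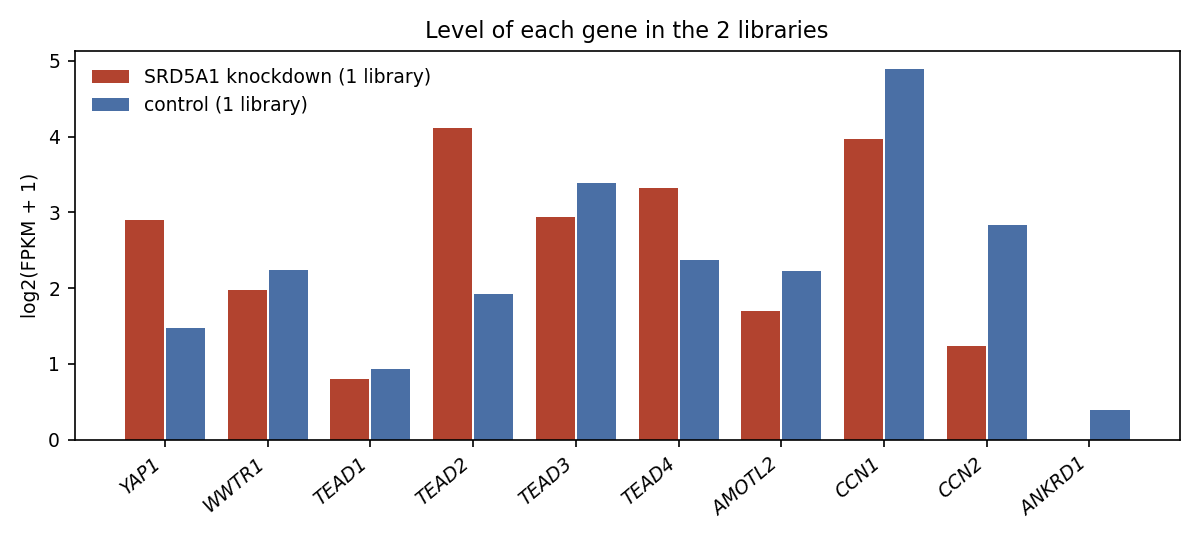
Level of each gene in log2(FPKM + 1) in the SRD5A1 knockdown library (left bar) and the control library (right bar), 1 library each. The bars of YAP1, TEAD2 and TEAD4 are taller in the knockdown library and all others are taller in the control library, with ANKRD1 at 0 in the knockdown library.

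YAP1 (ENSG00000137693, chromosome 11, 102110447 to 102233424, plus strand, positions on GRCh38) encodes the coactivator YAP. It was at 6.45 FPKM (2661 counts) in the knockdown library, against 1.79 FPKM (566 counts) in the control library. The level in the knockdown library was well above that of the control, with a CPM ratio of 3.59 (3.28 to 3.94). The difference in log2(FPKM + 1) was 1.42, which is 1.12 above the median of expressed genes, and 89.6% of expressed genes had a smaller difference. Its lowest value under the alternative settings was 1.12, so it stayed above the 2-fold threshold in all 8. A row named AP001527 overlaps the YAP1 start by 11 bases on the opposite strand and held 56 counts in the knockdown library and 12 counts in the control library, few beside those of YAP1.

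WWTR1 (ENSG00000018408, chromosome 3, 149517235 to 149736714, minus strand) encodes TAZ, the paralogue of YAP. It was at 2.93 FPKM (1615 counts) in the knockdown library, against 3.72 FPKM (1566 counts) in the control library. Unlike YAP1 it was slightly lower in the knockdown library, with a CPM ratio of 0.788 (0.734 to 0.845) and a difference of -0.26 (-0.57 relative to the median). The antisense gene WWTR1-AS1, which lies within WWTR1, had 7 counts in the knockdown library and 0 in the control library.

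The balance between the coactivators was therefore reversed between the libraries. The FPKM ratio of WWTR1 over YAP1 was 0.455 (0.427 to 0.484) in the knockdown library and 2.08 (1.89 to 2.297) in the control library. YAP1 made up 68.7% of the summed FPKM of both genes in the knockdown library and 32.4% in the control library. A ratio of genes inside a library does not move with the scaling of that library. From counts, which are not corrected for length, the ratio was 0.607 (0.570 to 0.646) in the knockdown library and 2.77 (2.51 to 3.05) in the control library, on the same sides of 1.

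TEAD2 (ENSG00000074219, chromosome 19, 49340595 to 49362457, minus strand), a TEAD family member known for its expression in early embryos of mouse, had the largest difference of the 10 genes. It was at 16.3 FPKM (3175 counts) in the knockdown library, against 2.78 FPKM (416 counts) in the control library. The CPM ratio was 5.83 (5.26 to 6.47). The difference of 2.19 lay 1.89 above the median, and 97.6% of expressed genes had a smaller one. Over the alternative settings it ran between 1.86 and 2.51. The genes CD37 and DKKL1 overlap its ends by 12 and 675 bases on the opposite strand, and both were under 1 FPKM in both libraries.

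TEAD4 (ENSG00000197905, chromosome 12, 2959330 to 3040676, plus strand), which is needed for the trophectoderm in mouse embryos, was also higher. It was at 9.01 FPKM (1342 counts) in the knockdown library, against 4.15 FPKM (474 counts) in the control library. The CPM ratio was 2.16 (1.95 to 2.41). The difference of 0.96, 0.66 above the median, was just short of the threshold, which it passed with a pseudocount of 0.1 (1.10) and in CPM (1.05) and in none of the other 6 settings. By size of the difference, TEAD4 was the nearest of the expressed genes to the threshold from below, followed by CCN1.

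TEAD3 (ENSG00000007866, chromosome 6, 35473597 to 35497079, minus strand) was lower in the knockdown library. It was at 6.67 FPKM (1330 counts) in the knockdown library, against 9.49 FPKM (1444 counts) in the control library. Its CPM ratio was 0.704 (0.653 to 0.759) and its difference -0.45 (-0.75 relative to the median). TEAD1 (ENSG00000187079, chromosome 11, 12674421 to 12944737, plus strand) was weakly expressed, at 0.735 FPKM (516 counts) in the knockdown library and 0.903 FPKM (483 counts) in the control library. Its CPM ratio was 0.816 (0.719 to 0.926) and its difference -0.13 (-0.43 relative to the median). The low FPKM of TEAD1 goes with a long gene model. The deposited FPKM imply an exonic length near the 10279 bases that all its GENCODE 29 exons cover together, whereas the longer of the transcripts that the table lists for it has 2544 bases, so its rank within the family depends on the length used.

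Both the total and the make-up of the TEAD family differed between the libraries. The 4 genes summed to 32.7 FPKM in the knockdown library and 17.3 FPKM in the control library, a ratio of 1.89. This ratio moves with the scaling. It is divided by 1.20 with TMM, by 1.30 with the median ratio set to 1 and by 1.32 with the upper quartile. TEAD2 supplied 49.8% of the summed TEAD FPKM in the knockdown library and 16.1% in the control library. TEAD3 supplied 20.4% in the knockdown library and 54.8% in the control library, so that the leading TEAD transcript was TEAD2 in the knockdown library and TEAD3 in the control library. TEAD4 supplied 27.6% in the knockdown library and 24.0% in the control library. TEAD1 supplied 2.25% in the knockdown library and 5.21% in the control library. By counts the leading genes were the same, with TEAD2 at 49.9% (48.7% to 51.1%) in the knockdown library and 14.8% (13.5% to 16.1%) in the control library, and TEAD3 at 20.9% (19.9% to 21.9%) in the knockdown library and 51.3% (49.4% to 53.1%) in the control library. The share of TEAD1 depended most on the measure, since by counts it was 8.11% (7.45% to 8.81%) in the knockdown library and 17.1% (15.8% to 18.6%) in the control library, and TEAD4 was at 21.1% (20.1% to 22.1%) in the knockdown library and 16.8% (15.5% to 18.3%) in the control library. By counts TEAD1 stood above TEAD4 and TEAD2 in the control library, with intervals that overlapped those of both. Long stretches shared between the listed transcripts of these genes, whose reads could be assigned to a paralogue, were few. Among all 45 pairs of the 10 genes, only TEAD3 and TEAD4 shared any stretch of 50 bases in the GENCODE 29 sequences of their listed transcripts, and they shared 7 such stretches. The listed transcripts of TEAD1 held 3535 different stretches of 50 bases, while its exons cover 10279 bases, so much of its sequence was not compared.

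**Figure D2:**
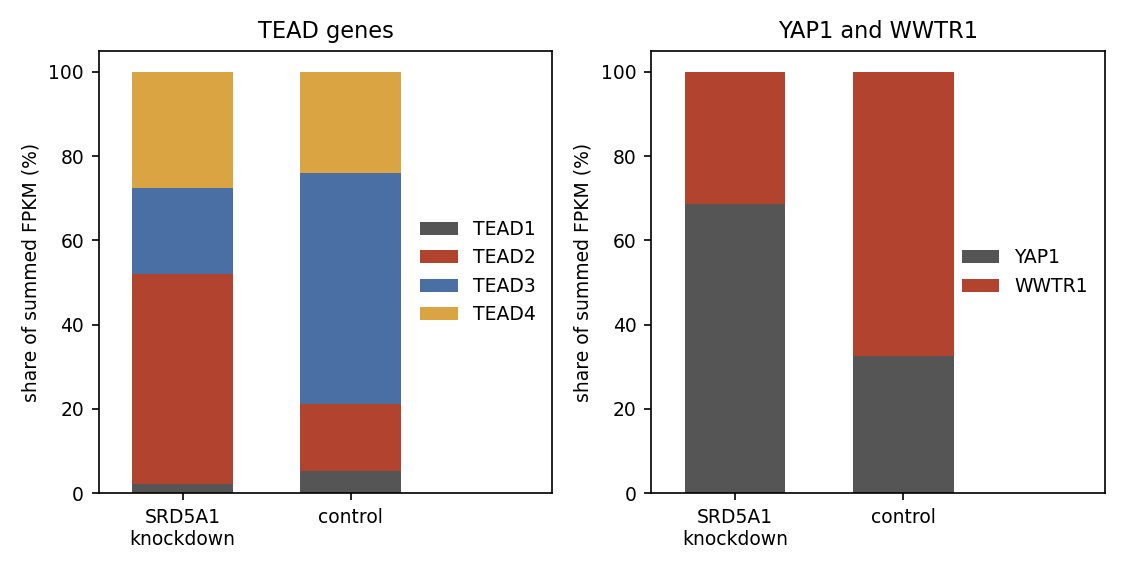
Share of each gene in the summed FPKM of the TEAD genes (left panel) and of YAP1 and WWTR1 (right panel), in percent, in the SRD5A1 knockdown and the control library. TEAD2 fills 49.8% of the TEAD bar in the knockdown library, where TEAD3 fills 54.8% in the control library, and YAP1 fills 68.7% of the coactivator bar in the knockdown library and 32.4% in the control library.

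All 4 target genes were lower in the knockdown library, the library with more YAP1 and TEAD2 transcript. CCN2 (ENSG00000118523, chromosome 6, 131948176 to 131951372, minus strand) encodes a secreted matricellular protein. It was at 1.35 FPKM (206 counts) in the knockdown library, against 6.11 FPKM (713 counts) in the control library. The CPM ratio was 0.221 (0.188 to 0.258). The difference of -1.599 was -1.90 relative to the median, only 2.83% of expressed genes had a lower one, and it ran from -2.10 to -1.599 over the alternative settings. The table has an antisense row, AL133346, that overlaps CCN2 by 427 bases, with 0 counts in the knockdown library and 4 counts in the control library.

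CCN1 (ENSG00000142871, chromosome 1, 85580761 to 85583950, plus strand), the related matricellular protein, was the most abundant of the targets. It was at 14.7 FPKM (2341 counts) in the knockdown library, against 28.6 FPKM (3488 counts) in the control library. The CPM ratio was 0.513 (0.486 to 0.540). The difference of -0.92 (-1.22 relative to the median) was short of the threshold, and it passed with TMM (-1.16), with the median ratio set to 1 (-1.28), with the upper quartile (-1.30), with a trend over GC and length taken out (-1.12) and in CPM without mitochondrial genes (-1.04). CCN1 and CCN2 did not keep their proportion, since the FPKM ratio of CCN1 over CCN2 was 10.9 (9.43 to 12.6) in the knockdown library and 4.68 (4.32 to 5.08) in the control library.

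AMOTL2 (ENSG00000114019, chromosome 3, 134355874 to 134374594, minus strand) encodes an angiomotin, a junctional protein that binds YAP and holds it back. It was at 2.25 FPKM (882 counts) in the knockdown library, against 3.69 FPKM (1104 counts) in the control library. The CPM ratio was 0.610 (0.558 to 0.667), with a difference of -0.53 (-0.83 relative to the median). A pseudogene row within its span, RPL39P5, held 2 counts in the knockdown library and 4 counts in the control library. Of its relatives, AMOTL1 was at 3.76 FPKM in the knockdown library and 4.26 FPKM in the control library (difference -0.14, which turned to 0.06 with the GC and length trend removed).

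ANKRD1 (ENSG00000148677, chromosome 10, 90912096 to 90921276, minus strand), a muscle ankyrin repeat protein, had 0 counts in the knockdown library, against 31 counts (0.312 FPKM) in the control library. Against a floor of 3 counts for the knockdown library (0.0230 FPKM), it was at least 13.5-fold lower there. Both values are low, and ANKRD1 failed the filter on expression, so it is in no count of genes 2-fold apart.

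**Figure D3:**
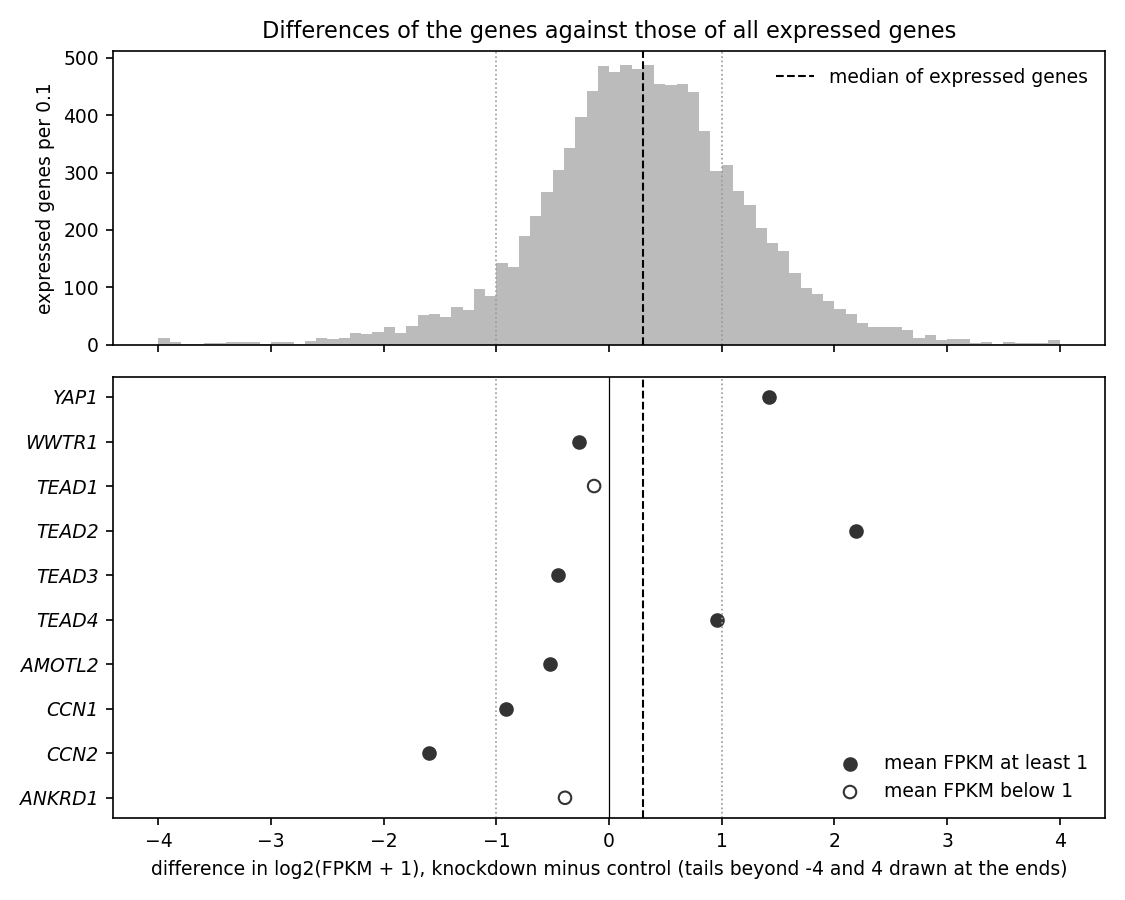
Upper panel: number of expressed genes per 0.1 of the difference (knockdown minus control, in log2(FPKM + 1)), with the median of 0.30 dashed. Lower panel: the difference of each of the 10 genes on the same axis, with open points for genes under a mean of 1 FPKM and dotted lines at -1 and 1; TEAD2 and YAP1 lie beyond 1 and CCN2 beyond -1.

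The order of the levels in FPKM, which allows genes of different length to be compared, was not the same in both libraries. In the knockdown library TEAD2 and CCN1 led, followed by TEAD4, TEAD3, YAP1, WWTR1, AMOTL2, CCN2 and TEAD1, and only the Poisson intervals of the neighbours TEAD3 (6.32 to 7.04 FPKM) and YAP1 (6.20 to 6.70 FPKM) overlapped. In the control library CCN1 led, followed by TEAD3, CCN2, TEAD4, WWTR1, AMOTL2, TEAD2, YAP1, TEAD1 and ANKRD1. There the interval of WWTR1 (3.54 to 3.91 FPKM) overlapped those of TEAD4 (3.79 to 4.54 FPKM) and AMOTL2 (3.47 to 3.91 FPKM). YAP1 thus stood next to TEAD3 in the knockdown library and near the lower end in the control library. The mean GC content of the listed transcripts ran from 43.3% in ANKRD1 to 64.1% in TEAD4, and the genes higher in the knockdown library lay across that range, with YAP1 at 45.8% and TEAD2 at 58.3%. With 2 libraries a pattern is a single difference, so no likeness to other genes was computed.

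**Figure D4:**
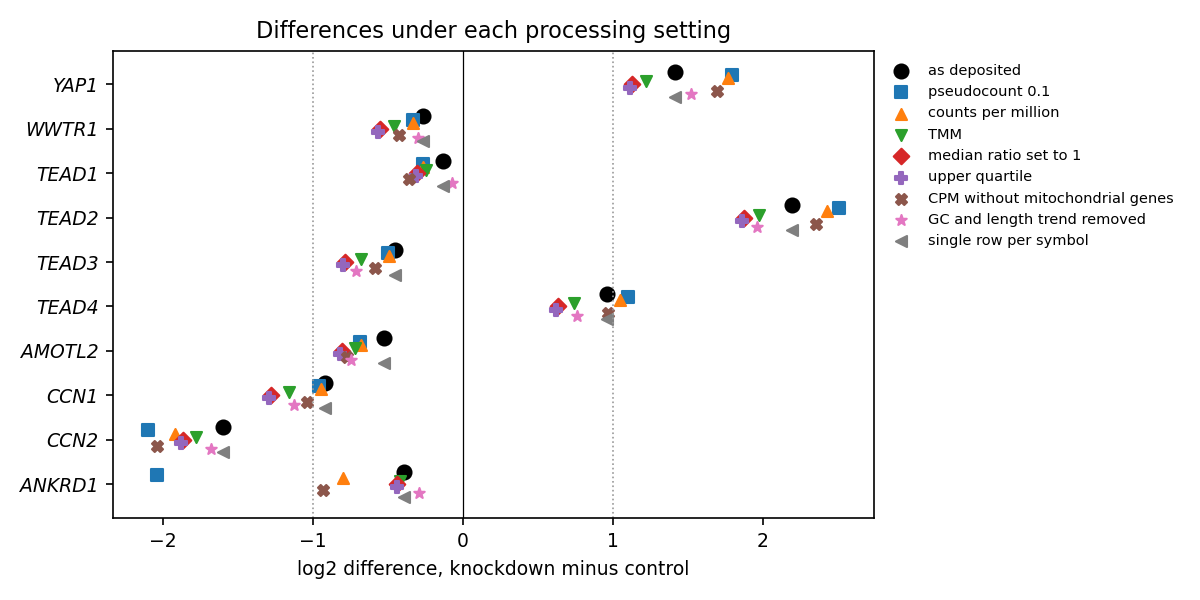
Difference of each gene, knockdown minus control, on a log2 scale as deposited (black) and under 8 other settings of pseudocount, unit, scaling, length and GC trend and row choice. No gene has points on both sides of 0, and TEAD4, CCN1 and ANKRD1 have points on both sides of a 2-fold line (dotted).

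The rest of the Hippo pathway was followed in lists. Beyond the 10 genes they held 131 genes, of which 129 were in the table and 80 were expressed. Of these 80, 17 were 2-fold higher and 7 were 2-fold lower, 24 in all. Among all expressed genes 27.7% were 2-fold apart, 20.9% higher and 6.83% lower, and these shares stand beside every list below. The median difference of the 80 genes, 0.31, was next to the 0.30 of all expressed genes.

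In the core kinase cassette, 0 of 4 expressed genes (7 listed) were 2-fold higher and 1 was 2-fold lower, with a median of -0.37. The one past the threshold was LATS2, a kinase that phosphorylates YAP and is itself a target of YAP/TAZ, at 1.41 FPKM in the knockdown library and 8.48 FPKM in the control library (difference -1.98, CPM ratio 0.167, 0.151 to 0.183). STK4, which encodes the kinase MST1, was at 1.83 FPKM in the knockdown library and 3.66 FPKM in the control library (-0.72). The scaffold SAV1 went the other way, at 2.52 FPKM in the knockdown library and 1.08 FPKM in the control library (0.76).

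Among 9 expressed upstream activators none was 2-fold apart in the difference as defined, and the median of 0.30 was next to that of all expressed genes. MAP4K4, a kinase upstream of LATS, had a difference of 0.79 (CPM ratio 2.27, 2.09 to 2.46). NF2, the tumour suppressor Merlin, had one of -0.42 (CPM ratio 0.691, 0.642 to 0.744). Of 9 expressed polarity and junction scaffolds 1 was 2-fold apart, the phosphatase gene PTPN14, at 0.388 FPKM in the knockdown library and 1.995 FPKM in the control library (-1.11), while CDH1, encoding E-cadherin, was at 0.86 and the polarity gene SCRIB at 0.59.

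The next list grouped genes of the STRIPAK phosphatase complex and the AJUBA family as opponents of the Hippo kinases. That role was not checked for each product. Of the list's 12 expressed genes, 3 were 2-fold higher and 0 lower, beside 20.9% higher among all expressed genes. Their median of 0.50 was 0.03 at a mean of at least 5 FPKM and 0.08 with no filter on low values. AJUBA, a LIM protein that inhibits LATS, was at 6.37 FPKM in the knockdown library and 0.765 FPKM in the control library (difference 2.06, CPM ratio 8.29, 7.23 to 9.54). The kinase STK25 was at 1.19, and SIKE1, a subunit of the STRIPAK phosphatase complex, at -0.59.

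The lists that act on phosphorylated YAP and TAZ were mixed. Of 7 expressed 14-3-3 genes 1 was 2-fold lower, SFN (14-3-3 sigma), at 162 FPKM in the knockdown library and 509 FPKM in the control library (-1.65), while YWHAQ was at 0.47 and YWHAG at -0.62. Of 7 genes of the kinases and ubiquitin ligase that degrade YAP and TAZ, 2 were 2-fold higher, CUL1 (1.596) and BTRC (1.02), with CSNK1D at 0.90 and SKP1 at -0.26 (0.14 with the GC and length trend removed). None of 5 expressed TEAD cofactors was 2-fold apart in the difference as defined. VGLL4, which competes with YAP for TEAD, was at 8.14 FPKM in the knockdown library and 5.19 FPKM in the control library (0.56). The coactivator gene NCOA3 was at -0.78, with a CPM ratio of 0.406 (0.365 to 0.452). VGLL3 had 0 counts in the knockdown library and 12 counts in the control library.

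Targets beyond the 10 genes went both ways. A conserved target signature of 22 genes, taken from knowledge of published work, had 15 expressed genes, of which 2 were 2-fold higher and 4 lower, with a median of -0.09 (0.07 with the GC and length trend removed). It includes CCN1, CCN2 (1 of the 4), AMOTL2 and ANKRD1, so it is not independent of them. FJX1 was the highest, at 7.37 FPKM in the knockdown library and 0.181 FPKM in the control library (difference 2.83). GADD45A, a stress-inducible growth arrest gene, was the lowest, at 16.8 FPKM in the knockdown library and 101 FPKM in the control library (-2.52), followed by LATS2. Of the signature's windows around starts, 9 of 18 held the TEAD word, and 6 of 14 without the 10 genes, beside 14.03% of all windows.

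Of 8 expressed genes of a second list of described targets, 3 were 2-fold higher and 3 lower, beside 20.9% and 6.83% of all expressed genes. Their median was 0.87 (-0.12 over all genes of that list with no filter on low values). The cyclin gene CCND1 was at 70.6 FPKM in the knockdown library and 19.6 FPKM in the control library (1.79), and EREG, a ligand of the EGF receptor, at 12.0 FPKM in the knockdown library and 2.86 FPKM in the control library (1.75). Of 9 expressed cell cycle genes that have been described as regulated by YAP/TAZ, 7 were 2-fold higher and 0 lower, beside 20.9% higher among all expressed genes, with a median of 1.16. Over all 14 genes of that list, with no filter on low values, the median was 0.73, and the weakly expressed TOP2A, RAD18, CENPF and ECT2 were slightly lower in the knockdown library, at -0.08, -0.13, -0.03 and -0.09. MCM3, a subunit of the replicative helicase, was at 44.7 FPKM in the knockdown library and 9.36 FPKM in the control library (2.14). TK1 was at 1.70 and MCM7 at 1.63, while CDC20 was at -0.55.

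**Figure D5:**
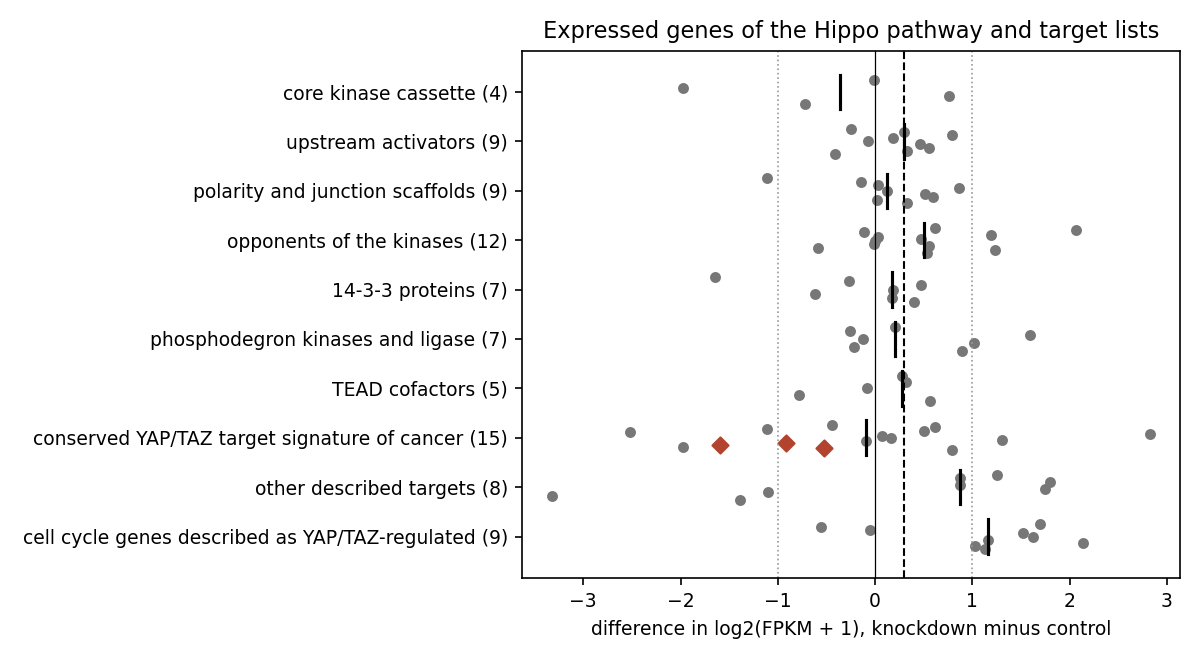
Difference in log2(FPKM + 1), knockdown minus control, of every expressed gene of 10 lists (number in brackets), with the list median as a black bar, the median of all expressed genes dashed and the 2-fold lines dotted. Diamonds mark CCN2, CCN1 and AMOTL2 in the target signature, and the cell cycle list has its median at 1.16, whereas the signature spreads from -2.52 to 2.83.

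In a bulk library, fewer cells of a kind and less RNA per cell cannot be told apart. CCN1 and CCN2 are also strongly expressed by fibroblasts, and the fibroblast markers DCN and PDGFRA were at 0 counts in both libraries, with 1 of 6 fibroblast markers expressed and a summed level of 3.11 FPKM in the knockdown library and 4.16 FPKM in the control library. The expressed one, the collagen gene COL1A1, carried most of that sum, at 2.39 FPKM in the knockdown library and 4.02 FPKM in the control library. The collagen genes COL3A1, at 0.587 FPKM in the knockdown library and 0.112 FPKM in the control library, and COL1A2, at 0.118 FPKM in the knockdown library and 0.0295 FPKM in the control library, were higher in the knockdown library, and LUM had 4 counts there and 0 counts in the control library. The part of these collagen genes in the results was not tested. Endothelial markers summed to 0.192 FPKM in the knockdown library and 0.117 FPKM in the control library (0 of 4 expressed), and adipocyte markers to 0.117 FPKM in the knockdown library and 0.319 FPKM in the control library (0 of 3 in the table expressed). Leukocyte markers summed to 1.35 FPKM in the knockdown library and 7.86 FPKM in the control library, where CD68 alone was expressed and CD3E was at 0 in both. The part of CD68 in these results was not tested.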

How the data were processed

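Per the labels' protocols, poly(A) RNA was sequenced as paired ends. The submitters' processing notes name Bowtie 0.12.2, HISAT2 2.0 and StringTie 1.3.0 without roles, and the mouse build mm8, although the identifiers are human. Of 31659 rows with an identifier in GENCODE 29 (GRCh38), 69.3% have the same position there, so positions are given as GRCh38. Which counter was used, and whether it took strand into account, is not given in the sources used here.

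In 31798 rows, the table deposited by the authors gives FPKM and raw counts for each library. Rows were summed by symbol. For the 9 genes with counts in both libraries, FPKM and CPM ratios agreed within a factor of 0.998 to 1.005, and the deposited FPKM imply the length of all GENCODE 29 exons of a gene (0.995 to 1.04 times, scaled on CCN2). Differences were taken in log2(FPKM + 1), which understates differences of low genes. TMM factors came from edgeR 4.0.16 and intervals from scipy 1.17.1. The steps were run on simulated Poisson counts with planted changes. That simulation held no spread between cultures, so it says nothing about such spread in these libraries.

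The members and lists were chosen with earlier results of these data known. Of each list the text names at most 3 expressed genes with the largest differences, the one most against the list's median, and genes at 0 in 1 library. Some genes that this rule names are counted in their lists and not reported here by name. Protein sequences were not used here.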

Additional observations from a re-analysis of the deposited data

How the results depend on the processing

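The counting intervals of the CPM ratios exclude 1 for all 10 genes, and that of ANKRD1 rests on 31 counts in 1 library. All 10 genes kept their direction under the 8 alternative settings. For the genes lower in the knockdown library, only removing the GC and length trend could have turned it. Among these genes the number 2-fold lower became 2 with TMM, the upper quartile, the median ratio set to 1, CPM without mitochondrial genes and the GC and length trend removed, each time by adding CCN1, and at a mean of at least 5 FPKM it was 0, with 1 gene 2-fold higher, because YAP1 and CCN2 have lower means. Over all expressed genes, 1327 were higher and 1174 lower with the median ratio set to 1, 1292 and 1212 with the upper quartile, and 1136 and 345 at a mean of at least 5 FPKM, against 2115 and 693. Higher genes made up 75.3% of those 2-fold apart as deposited, 61.1% with TMM, 53.1% with the median ratio and 51.6% with the upper quartile. The median of all expressed genes was 0.10, -0.00 and -0.02 in these scalings. Of the pathway list genes, 10 were higher with the median ratio, 9 with the upper quartile and 8 at a mean of at least 5 FPKM, where 4 were lower. List medians turned sign with at least 1 setting for the upstream activators, polarity scaffolds, 14-3-3 genes, degradation genes, TEAD cofactors, the target signature and the second target list. No paired analysis was possible because there was 1 library per group, and for the same reason no library could be left out.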

Other observations

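Relatives of CCN1, CCN2 and ANKRD1, described here after their values were seen, were weakly expressed. CCN3, a CCN protein described as antiproliferative, was at 1.31 FPKM (224 counts) in the knockdown library and 0.371 FPKM (49 counts) in the control library, a CPM ratio of 3.49 (2.55 to 4.86), opposite in direction to CCN1 and CCN2. CCN4 had 0 counts in both libraries, CCN5 had 0 counts in the knockdown library and 4 counts in the control library, and CCN6 had 0 counts in the knockdown library and 8 counts in the control library. ANKRD23, a paralogue of ANKRD1, was at 0.608 FPKM (165 counts) in the knockdown library and 0.151 FPKM (32 counts) in the control library, a CPM ratio of 3.94 (2.68 to 5.95). Of other signature genes at 0 in 1 library, TGFB2 had 8 counts in the knockdown library and 0 counts in the control library, and RBMS3 had 0 counts in the knockdown library and 2 counts in the control library.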
